A study of Rattus norvegicus with 15 samples.

Results

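Antimicrobial and mucus genes were followed in the olfactory epithelium, where sensory neurons, supporting cells and glands cover the upper rear part of the nasal cavity. The set comprised defensins, S100 calcium-binding proteins, lysozymes, the BPI and PLUNC family, other antimicrobial proteins, mucins and Toll-like receptors, chosen by gene name alone. It held 47 gene names of the 35561 on the array, measured by 60 oligonucleotide probes of the 41012. Total RNA came from 8 Brown Norway rats aged 6 weeks, 4 males (rats 1, 2, 5 and 6) and 4 females (rats 3, 4, 7 and 8), and each side of the nose was measured separately as nostril A or nostril B. Male 1 has an array for nostril A but not for nostril B, and the other 7 rats have both, which makes 7 male and 8 female arrays. The study describes the animals as naive, not exposed to a particular odorant. No treatment, transgene or genotype separated the groups. The labels do not say which letter stands for the left or the right side, nor which supplier a rat came from. The study's methods say that the left sample of 1 male, supplied by Elevage Janvier, was dropped for RNA quality, and male 1 is the only rat here with a single array.

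The nasal surface is protected by a layer of mucus, by secreted peptides and proteins that bind or damage microbes, and by receptors that sense microbial molecules. Mucins are large glycoproteins, and the gel-forming ones (Muc2, Muc5ac, Muc6, Muc19) are secreted whereas Muc1, Muc4, Muc13 and Muc20 are anchored in the cell membrane. Some of the antimicrobial proteins are made by glands and surface cells (Plunc, Slpi, lysozyme), and others are stored in or abundant in neutrophils, the white blood cells that engulf microbes (the cathelicidin Camp, alpha-defensins, and S100a8 with S100a9, which together form calprotectin). Toll-like receptors recognize microbial lipids, proteins and nucleic acids and signal largely through the adaptor Myd88.

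Each level is the signal divided by the median signal of its array, on a log2 scale, so a level of 0 equals the array median. Levels under a floor of 0.1 of the median (-3.32) have no order, and levels of different probes cannot be ranked because probes differ in how well they bind. Array medians lay between 57.4 and 83.4 intensity units, and each array had 26233 to 28741 probes well above background. The tissue label held on its defining markers: all 10 probes of mature olfactory neuron genes and all 3 of sustentacular cell genes were tested, and their mean levels ranged over the arrays from 5.82 to 6.17 and from 9.37 to 9.90. None of the 4 probes for squamous epithelium genes was detected on any array. Mean levels of multiciliated cell genes ranged over the arrays from 4.68 to 5.45, and those of nasal gland genes from -2.36 to 5.87. Each sample mixes many cell types, so fewer cells of a type and less RNA per cell cannot be told apart. The arrays were spread over 4 slides: males 1 and 2 with one side (A) of female 3 on slide 1, the other side (B) of that female with female 4 on slide 2, males 5 and 6 on slide 3, and females 7 and 8 on slide 4.

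The first question was which of these genes were detectable. A probe well above background on 11 arrays or more counted as expressed, on 1 to 10 arrays as weakly expressed, and otherwise as not expressed. By this rule 40 (66.7%) of the 60 probes fell in the expressed class, 8 in the weakly expressed class and 12 in neither, and over the whole array 65.1% of probes were expressed. At least 1 probe was expressed for 32 of the 47 genes, and 9 genes were detected on no array. The 41 probes detected on at least 7 arrays, of 33 genes, entered the tests below. All 10 S100 genes had an expressed probe.

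Among defensins, the alpha-defensin gene named Defa on the array (Defa5 in RefSeq) and the beta-defensin Defb1, an epithelial peptide, were detected on 15 arrays, whereas Defa6, Defb3 and Defb24 were detected on none. Of the lysozymes, which cut bacterial cell walls, Lyz and Lyzl4 were detected on 15 arrays, Lyzl1 on 3 and Lyzl6 on none. Plunc (Bpifa1 in RefSeq), a secreted airway protein, and its relatives Bpi, Bpil1 and Bpil3 were detected on 15 arrays, and Bpil2 on none. Slpi, an inhibitor of neutrophil proteases, and Reg3a, a secreted lectin, were detected on 15 arrays by every probe. The iron-binding protein gene Ltf was detected on 2 arrays, at a log2 level of -1.35 in nostril A of male 2 and -0.09 in nostril B of female 4, and was at the floor on the other 13. The lectin Reg3g was detected on 2 arrays, and the peroxidase Lpo on none.

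Of the gel-forming mucins, Muc2, Muc5ac and Muc19 were detected on 15 arrays and both Muc6 probes on none. Of the membrane mucins, Muc1, Muc20 and 3 of the 5 Muc4 probes were detected on 15 arrays, a further Muc4 probe on 12 and the last on 0, and Muc13 on none. Muc10 (Oprpn in RefSeq) was detected only on nostril A of female 7. Of the Toll-like receptors, Tlr2, Tlr3, Tlr4 and Tlr6 were detected on 15 arrays and Tlr5 on 14. Tlr9, a receptor for DNA, was weakly expressed on 9 arrays, Tlr7 on 1 array, and Tlr10 on none. Tlr9 was detected on 0 of the 4 arrays of males 5 and 6, the rats of slide 3, and on 9 of the 11 arrays of the other rats, with females 3 and 8 each detected in 1 nostril.

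Probes of 1 gene did not always give the same call. Camp, Muc4 and S100a8 had probes in more than 1 detection class. In the array annotation, which uses rat genome build rn3, the probes of Camp, S100a4, S100a6 and S100a8 were written in both directions along the chromosome. Exons, introns and untranslated regions are not part of that annotation. Both directions occurred for 4 of the 8 set genes with several placed probes, and for 64 of 4304 gene names (1.49%) over the array. The start of each facing probe is shown for the pairs whose sequences overlap, because it shows that the members of a pair read opposite strands. Each line gives the first 30 bases of the probe, 5′ to 3′ as printed on the array, and capitals mark the stretch whose reverse complement lies in the other probe of the pair, 24 bases for S100a4 and 27 bases for S100a6.
S100a4 A_44_P1060286: GACTTCCAGGAGTACTGTGTCTTCctgtcc
S100a4 A_44_P332021: GAAGACACAGTACTCCTGGAAGTCaacttc
S100a6 A_42_P581001: AACAAGGATCAGGAAGTAAACTTCCAGgag
S100a6 A_44_P519487: CTGGAAGTTTACTTCCTGATCCTTGTTacg
The S100a6 probes were placed at chr2:182846235-182846294 and chr2:182846202-182846261. The annotation placed the S100a4 probes apart, at chr2:182836604-182836663 and chr2:182837227-182837286, although they share the stretch. Both S100a4 and both S100a6 probes of these pairs were detected on 15 arrays. The 2 Camp probes share no such stretch: A_44_P1048474, at chr8:114234442-114234501, was detected on 15 arrays, and A_44_P828591, in the other direction at chr8:114236003-114236062, on 0. For S100a8, A_44_P1055780 (chr2:182912434-182912493) was detected on 15 arrays and the probes in the other direction, A_44_P674704 and A_44_P674708, on 6 and 3. All 3 arrays that detected A_44_P674708, nostril A of male 2 and both nostrils of female 4, were those with the highest levels of A_44_P1055780, 3.44, 3.02 and 3.18. Values for S100a8 and Camp below are from A_44_P1055780 and A_44_P1048474.

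Nostril B was compared with nostril A in the 7 rats with both sides, to ask whether B differs from A across rats. The labels do not say whether a letter means the same side in every rat. If it does not, differences between left and right could cancel. None of the 41 probes passed a false discovery rate of 1%, and over the array 0% of 27574 probes did (limma, lowest adjusted p of the set 0.78). An unadjusted p under 0.05 was found for 5 probes (12.2%) of the set and for 5.89% of all probes. These were Defa, Camp, S100a8, S100a9 and Tlr2, each with a lower mean in nostril B. Without female 3 the count was 11 and without female 8 it was 8, and leaving out the other rats in turn gave 4 to 6.

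Defa, placed at chr16:75024706-75024765 in rn3, ranged in nostril A from 2.81 to 5.71 (median 3.70) and in nostril B from 0.26 to 4.18 (median 1.62). Nostril B averaged 1.91 ± 0.52 (SE, 7 rats) lower on the log2 scale, a 3.76-fold difference (limma, adjusted p = 0.78). The difference lay between -4.48 in male 5 and 1.02 in female 4, and nostril B was the lower side in 6 of 7 rats.

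Camp ranged from 0.68 to 3.51 in nostril A (median 1.89) and from -0.48 to 2.41 in nostril B (median 0.39). The mean difference, B minus A, was -1.22 ± 0.32 on the log2 scale, 2.33-fold, again with 6 of 7 rats lower in nostril B. S100a9 ranged from 1.96 to 4.23 in nostril A and from 1.09 to 3.60 in nostril B, with a mean difference of -0.85 ± 0.25 on the log2 scale and 6 of 7 rats lower in nostril B. Its partner S100a8 differed by -0.86 ± 0.28 (log2), with 5 of 7 rats lower in nostril B. Groups overlapped for all 4 genes, and the adjusted p of each was 0.78. The normexp background correction is a model that keeps low signals positive. Here it started from the mean and background signals of each spot and added a constant, which narrows log2 differences of low signals. With it the differences of Defa, Camp, S100a9 and S100a8 were -1.71, -0.96, -0.85 and -0.75 on the log2 scale. Their adjusted p fell to 0.013, 0.013, 0.052 and 0.10 (limma), all above 1%. Female 4 was the exception shared by the 4 genes, with nostril B the higher side for each of them.

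**Figure D1:**
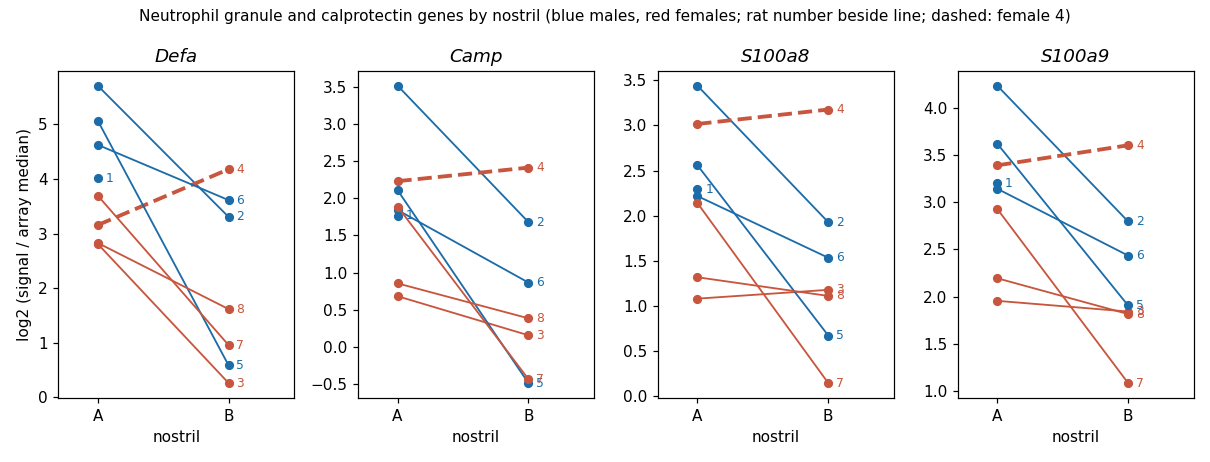
Log2 level (signal over array median) of Defa, Camp, S100a8 and S100a9 in nostril A and nostril B, with 1 line per rat, blue for males and red for females, and the rat number at its end; male 1 has nostril A alone. Lines slope down from A to B except those of female 4 (dashed) for every gene and female 3 for S100a8.

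Marker lists of other cell types were read beside these genes, and no marker passed 1% between nostrils. Of the neutrophil list, 4 of 11 probes were tested (Ctsg, Itgam, Ngp, Prtn3), and all 4 had a lower mean in nostril B. The mean level of the list ranged over arrays from -1.14 to 0.44 in nostril A and from -1.49 to -0.34 in nostril B, and was lower in nostril B in 6 of 7 rats, the exception being female 4. Csf3r, Fpr1 and Il8rb, also in that list, were detected on no array. Mpo, detected on 2 arrays, and Mmp8 and Ela2, each on 1, were not tested. All 11 tested macrophage probes and all 7 tested red cell probes had a lower mean in nostril B, with list means in the 7 rats of 3.31 to 3.81 (A) against 3.06 to 3.57 (B) and 2.87 to 5.04 against 2.17 to 4.95. The 4 tested probes of nasal gland genes (odorant-binding proteins) had higher means in nostril B, with list means of -2.36 to 3.77 against 0.15 to 5.87, as did all 7 tested probes of multiciliated cells, at 4.68 to 5.25 against 5.06 to 5.45. All 8 tested mast cell probes had a lower mean in nostril B, at 2.31 to 2.94 against 2.03 to 2.83. Means were higher in nostril B for all 3 sustentacular probes (9.40 to 9.78 against 9.37 to 9.90). The same held for all but 1 of the 10 mature neuron probes (5.85 to 6.16 against 5.82 to 6.17). The part of these cells in the differences of Defa, Camp, S100a8 and S100a9 was not tested.

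Muc5ac, the gel-forming mucin of airway goblet cells, had the largest mean difference in the opposite direction. It ranged from -1.21 to 2.07 in nostril A (median 0.07) and from -0.74 to 3.86 in nostril B (median 0.94), and nostril B averaged 1.02 ± 0.46 higher on the log2 scale (SE, 7 rats; limma, adjusted p = 0.78). Nostril B was the higher side in 6 of 7 rats. The largest single contribution came from male 2, with 0.07 in nostril A and 3.86 in nostril B, and without that rat the mean difference was 0.56. Muc5ac was also the 1 probe of the set with an unadjusted p under 0.05 for a nostril difference that itself differed between the sexes, where 2.36% of all probes had one (limma, interaction -1.79 ± 0.76 on the log2 scale, adjusted p = 1.00). Of the 9 tested mucin probes, Muc5ac included, 8 had a higher mean in nostril B, as did 15383 of the 27574 probes of the array. Probes of mucin genes other than Muc5ac had mean differences between -0.07 (Muc19) and 0.28 (a Muc4 probe). Without male 5 the difference of that Muc4 probe was 0.14, and it was well above background on 12 arrays. Lyzl4 averaged 0.35 ± 0.25 higher in nostril B, with 0.18 without female 4, 0.20 without male 2 and 0.55 without female 8.

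**Figure D2:**
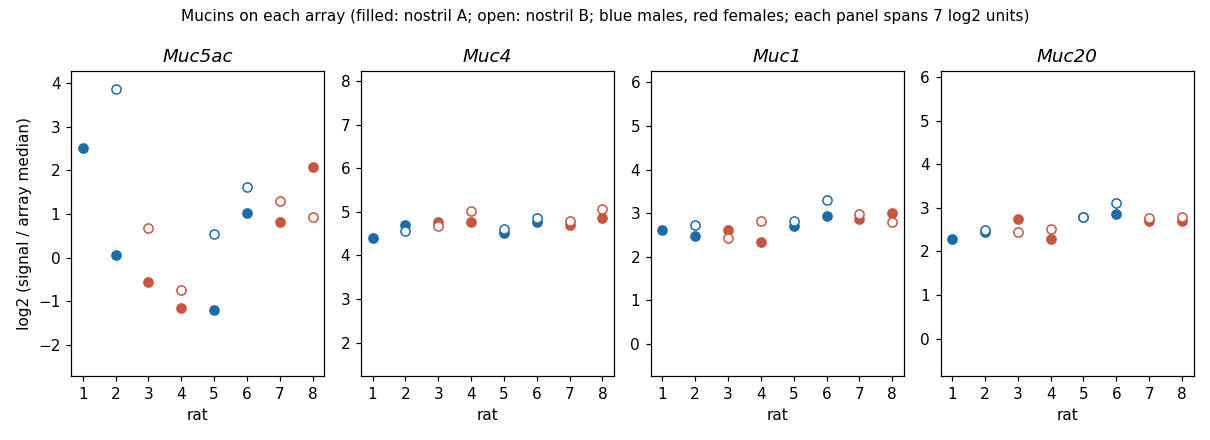
Log2 level of Muc5ac, Muc4 (probe A_42_P686234), Muc1 and Muc20 on each of 15 arrays, by rat, with filled points for nostril A, open points for nostril B, blue for males and red for females; every panel spans 7 log2 units. Muc5ac spreads from -1.21 to 3.86, whereas Muc4, Muc1 and Muc20 each stay within 1 log2 unit.

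Males and females were then compared over rat means, with the nostrils of a rat averaged. Slides 2 and 4 held females alone, slide 3 males alone and slide 1 both. Differences between sexes therefore cannot be told apart from differences between slides, except on slide 1. None of the 41 probes passed the 1% false discovery rate, and 0.0434% of all 27625 probes did. An unadjusted p under 0.05 was found for 9 probes (22.0%) of the set and for 17.1% of all probes. Of these, 8 had a lower mean in females (Defa, Reg3a, Tlr2, Lyz, both Slpi probes and S100a4 by 2 probes) and 1 a higher mean (a Muc4 probe). Slpi and Tlr2 had the lowest adjusted p-values of the set, 0.12 to 0.13.

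Slpi (A_44_P372261) measured 1.87, 1.89, 1.73 and 2.28 in males 1, 2, 5 and 6, and 1.42, 1.17, 1.62 and 1.51 in females 3, 4, 7 and 8. The probe was placed at chr3:155280672-155280731 in rn3. The sexes did not overlap, and females averaged 0.51 ± 0.13 lower on the log2 scale (SE, 4 and 4 rats; 1.43-fold; limma, adjusted p = 0.12). The other Slpi probe gave a difference of -0.48 ± 0.13 (log2, adjusted p = 0.13). Tlr2, the receptor for bacterial lipoproteins (chr2:175558266-175558323), measured 2.29, 2.86, 2.64 and 2.84 in males 1, 2, 5 and 6 and 1.97, 2.22, 2.25 and 2.28 in females 3, 4, 7 and 8, a difference of -0.48 ± 0.13 on the log2 scale (limma, adjusted p = 0.13). Only Tlr2 and the 2 Slpi probes, 3 of 41 or 7.32%, had no overlap between the sexes, and this held for 11.3% of all tested probes.

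Reg3a (chr4:112613120-112613179) measured 1.41, 2.00, 0.34 and 0.81 in males 1, 2, 5 and 6 and -0.40, 0.47, -0.36 and 0.36 in females 3, 4, 7 and 8. Male 5 lay within the range of the females, and the mean difference was -1.12 ± 0.35 on the log2 scale (limma, adjusted p = 0.16). Defa measured 4.01, 4.51, 2.83 and 4.12 in the males and 1.54, 3.67, 2.33 and 2.22 in the females, a difference of -1.43 ± 0.46 on the log2 scale (limma, adjusted p = 0.17). Muc5ac (-0.95 ± 0.66), S100a9 (-0.71 ± 0.34), Camp (-0.61 ± 0.46), S100a8 (-0.47 ± 0.43) and Lyz (-0.34 ± 0.13) also had lower means in females, with adjusted p-values from 0.22 to 0.605. Single rats moved most of these: without female 4 the differences were -0.49 for Muc5ac, -1.10 for S100a9, -1.04 for Camp and -0.95 for S100a8. Without male 5 the Muc5ac difference was -1.51, without male 1 it was -0.56, and without male 2 those of Camp and S100a8 were -0.29 and -0.28. S100a8 differed by -0.30 without female 3 or female 7. With slide as a block, Muc5ac, Camp, S100a8, S100a9 and Reg3a differed by -2.72, -1.63, -1.47, -1.45 and -2.35 on the log2 scale. Defa differed by -1.53. That fit takes arrays as independent and rests on nostril A of female 3 against the 3 arrays of males 1 and 2. Female 3 was the lowest rat for Camp, S100a8, S100a9, Reg3a and Defa.

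**Figure D3:**
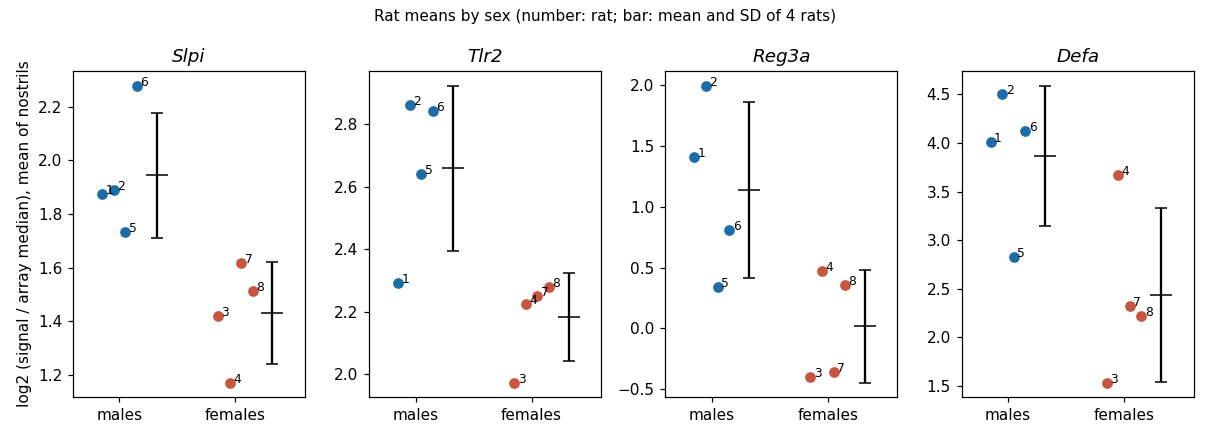
Log2 level averaged over nostrils of each rat for Slpi (probe A_44_P372261), Tlr2, Reg3a and Defa, with rat numbers beside the points and the mean and SD of 4 rats beside each sex. Male and female points of Slpi and Tlr2 do not overlap, and those of Reg3a and Defa do.

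The largest means in the other direction were those of Tlr5, the flagellin receptor, at 0.46 ± 0.25, Tlr9 at 0.45 ± 0.28, and Bpi, which binds bacterial lipopolysaccharide, at 0.37 ± 0.26 higher in females on the log2 scale (limma, adjusted p = 0.39, 0.45 and 0.495). The differences were 0.24 for Tlr5 without female 3, 0.24 for Tlr9 without male 5, and 0.18 and 0.65 for Bpi without male 2 and male 6, and with the normexp correction 0.15, 0.07 and 0.18. The constant added in that correction narrows differences of low signals such as those of Tlr5 and Tlr9. Tlr9 was not well above background in males 5 and 6, so its levels there are bounds. With slide as a block, where slide 1 alone compares the sexes with 1 female and 3 male arrays, Tlr5 passed 1% at a difference of 1.72 ± 0.30 on the log2 scale (limma, adjusted p = 0.0046). That value rests on nostril A of female 3, at -0.20, against -1.78, -1.93 and -2.06 in the 3 male arrays. Nostril B of the same female, on slide 2, read -1.45. In the same fit Tlr9 turned to -0.39 and the Bpi difference was 0.88, neither passing 1%.

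Among markers of other cell types, means were lower in females for 4 of 4 tested neutrophil probes and for 10 of 11 tested macrophage probes. The neutrophil list averaged -0.62 to -0.21 in the 4 males and -1.20 to -0.49 in the 4 females, and the macrophage list 3.16 to 3.69 and 3.29 to 3.39. Red cell probes were lower in females for 5 of 7 (3.52 to 4.99 in males, 2.79 to 4.64 in females) and plasma and B cell probes for 2 of 2 (-0.69 to 0.81 and -1.54 to -0.75). Higher means in females were found for 3 of 3 sustentacular probes (9.39 to 9.61 in males, 9.65 to 9.84 in females), 9 of 10 mature neuron probes (5.89 to 6.03 and 5.95 to 6.17), 3 of 4 nasal gland probes (-1.10 to 3.27 and 1.68 to 3.68) and 6 of 7 multiciliated cell probes (4.87 to 5.24 and 5.19 to 5.26). No marker passed 1% between the sexes. Their part in the sex differences of Tlr2, Slpi, Reg3a and Defa was not tested.

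Individual rats of 1 sex were compared with the spread between nostrils as the error, to ask which of these genes varied between animals. Of the 41 probes, 1 (2.44%) passed 1%, S100a10, where 2.79% of all 27574 probes did. At 5% there were 6 (14.6%), namely S100a10, Plunc, S100a16, S100a5, Muc20 and Tlr9 (not well above background in males 5 and 6), where 16.1% of all probes passed, and 16 (39.0%) had an unadjusted p under 0.05, where 37.1% of all probes did. The shares of the set therefore lay close to those of the array. With slide as a block, which compares only rats on 1 slide, 9 probes (22.0%) had an unadjusted p under 0.05, where 17.1% of all probes did, and none passed 1% (limma, lowest adjusted p 0.16, for S100a5).

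S100a10, the partner of annexin A2 (chr2:186604339-186604398 in rn3), measured 6.27 and 6.65 in males 1 and 2, 7.01 and 7.07 in males 5 and 6, 6.50 and 6.36 in females 3 and 4, and 6.80 and 6.78 in females 7 and 8. Rats 1 to 4 lay below rats 5 to 8 in both sexes, while the nostrils of a rat had an SD of 0.08 (limma, F = 20.7, adjusted p = 0.0034). With slide as a block the adjusted p was 0.23, without female 7 or female 8 it was 0.011 and 0.013, and with the normexp background correction it was 0.88. Plunc ranged from 11.84 to 12.26 over the arrays and had an adjusted p of 0.013 between rats, since its nostrils differed by no more than 0.10. S100a16 had an adjusted p of 0.020 with rat means from 7.09 to 7.49.

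Rats 1 to 4 were on slides 1 and 2 and rats 5 to 8 on slides 3 and 4, 2 males and 2 females in each. Rat means of 5 tested probes (12.2%) did not overlap between these sets of rats, where 11.3% of all tested probes did not. S100a10 (6.27 to 6.65 against 6.78 to 7.07), Muc20 (2.29 to 2.59 against 2.73 to 2.98), Muc1 (2.52 to 2.62 against 2.77 to 3.13) and a Muc4 probe (A_44_P356070) were higher in rats 5 to 8. S100a5, a member linked to olfactory sensory neurons, was lower, from 9.46 to 9.87 in rats 1 to 4 and from 9.03 to 9.42 in rats 5 to 8. With the normexp correction S100a5 and this Muc4 probe overlapped between the sets of rats, and Lyzl4 and Tlr4 did not. Slide and any other feature shared by rats 1 to 4 cannot be told apart. The study bought 2 males and 2 females from each of 2 suppliers, and the labels do not say whether these sets of rats follow supplier.

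**Figure D4:**
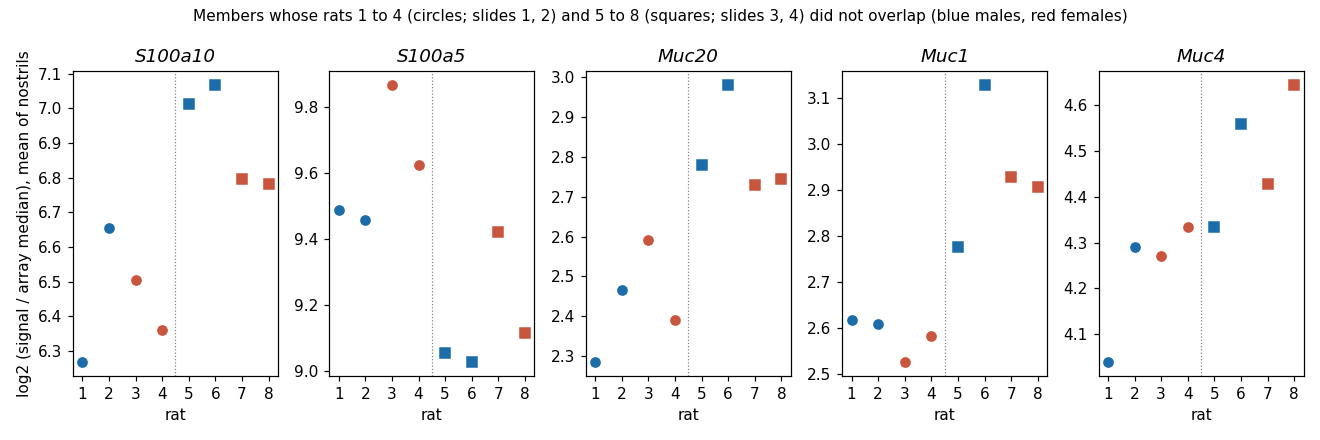
Rat means on the log2 scale of S100a10, S100a5, Muc20, Muc1 and Muc4 (probe A_44_P356070), with circles for rats 1 to 4 (slides 1 and 2), squares for rats 5 to 8 (slides 3 and 4), blue for males and red for females. Squares lie above circles for every gene but S100a5, where they lie below, and for Muc4 the nearest circle and square both round to 4.33.

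The widest ranges over the 8 rat means were those of Muc5ac (3.46 log2 units, from -0.95 in female 4 to 2.51 in male 1), Defa (2.97), Reg3a (2.40), Camp (2.17), S100a8 (1.97), Bpil3 (1.82), S100a9 (1.61), Tlr9 (1.48), Bpi (1.44) and Tlr5 (1.40). The lowest Tlr9 levels, in males 5 and 6, were not well above background. The median range was 0.80 for the 41 probes and 0.47 for all tested probes. The narrowest were Tlr3, a receptor for double-stranded RNA (0.31), and Bpil1 (0.32). None of the widest, Tlr9 apart, passed 5% between rats. Nostrils of the same rat differed as well: the SD between nostrils was 1.76 for Defa, 1.23 for Muc5ac and 1.10 for Camp. By family, ranges ran from 0.40 to 1.97 for S100 probes, from 0.56 to 3.46 for mucins and from 0.31 to 1.48 for Toll-like receptors.

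S100a8, S100a9 and Camp were highest in the same rats. S100a9 measured 3.20, 3.51, 2.76 and 2.79 in males 1, 2, 5 and 6 and 1.90, 3.49, 2.01 and 2.00 in females 3, 4, 7 and 8. S100a8 measured 2.29, 2.68, 1.62 and 1.88 in these males and 1.13, 3.10, 1.14 and 1.22 in these females, and Camp 1.76, 2.60, 0.81 and 1.35 and 0.42, 2.32, 0.73 and 0.62. Male 2 and female 4 were the 2 highest rats for S100a8, S100a9 and Camp, and female 3 was the lowest for each of them. Defa was also highest in male 2 (4.51) and lowest in female 3 (1.54), but female 4 (3.67) lay below males 1 and 6. Ltf, another neutrophil granule gene, was detected on 1 array of male 2 and 1 of female 4, and on no other.

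S100a8 and S100a9 were set against the mean of the neutrophil list and of the red cell list over the 8 rats, 4 relations in all. In the neutrophil list, Ngp and Ctsg had the widest ranges over rats, 1.93 and 2.12, against 0.98 for Itgam and 0.52 for Prtn3. Ngp was well above background on only 7 arrays and Ctsg on 12, so the low end of the list mean is limited by signal over background. For S100a8 and the neutrophil list Pearson's r was 0.84 (exact permutation test, two-sided, p = 0.011, adjusted p = 0.022) and Spearman's rho was 0.90 (exact permutation p = 0.0046, adjusted p = 0.0091). Without females 3 and 8, the rats farthest from the median of the list, r was 0.79 (exact permutation p = 0.053, 6 rats), a like r over fewer rats. S100a9 and the neutrophil list gave r = 0.94 (exact permutation p = 0.00017, adjusted p = 0.00069) and rho = 0.98 (exact permutation p = 0.00040, adjusted p = 0.0016), and without females 3 and 8 r was 0.91 (exact permutation p = 0.0056, 6 rats). S100a9 left a gap of 46.8% of its range between females 3, 7 and 8 and the other rats. With the red cell list r was 0.58 for S100a8 and 0.67 for S100a9 (exact permutation p = 0.13 and 0.079, adjusted p = 0.13 and 0.11), rho was 0.60 and 0.52 (exact permutation p = 0.13 and 0.20, adjusted p = 0.18 and 0.20), and without females 3 and 7 r was 0.24 and 0.35. The red cell list left a gap of 50.6% of its range, and whether such gaps make separate clusters cannot be settled over 8 rats. Each slide and each side of these gaps held fewer than 6 rats, and no relation is given within them. The low side of the S100a9 gap held females 3, 7 and 8, and that of the red cell gap held these and male 2.

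**Figure D5:**
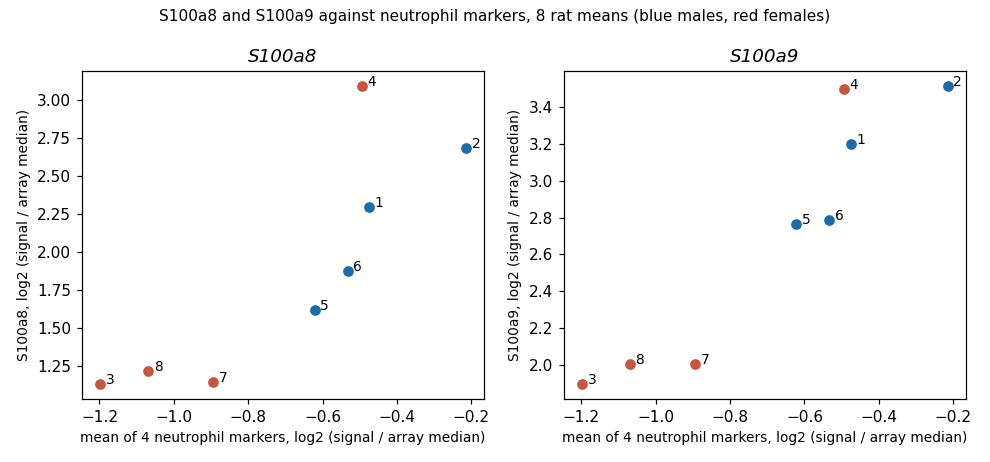
Log2 level of S100a8 (left) and S100a9 (right) against the mean log2 level of 4 neutrophil markers (Ctsg, Itgam, Ngp, Prtn3), with 1 numbered point per rat, blue for males and red for females. Females 3, 7 and 8 sit at the lower left of both panels, and female 4 lies above the males with a like list mean.

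Promoter sequence is shown for S100a9 and Camp, since these genes stood high and low in the same rats. Both are the 250 bases before the gene start in RefSeq build GRCr8, a later build than the rn3 of the array, 5′ to 3′ on the gene's own strand, which is the minus strand for both. S100a9 lies at chr2:178490623-178490872 and Camp at chr8:118721999-118722248 in that build. Capitals mark matches, on either strand, to TATAAA (the TATA box), TTNNGNAA (C/EBP) and GAGGAA (PU.1), and no match overlaps another.
S100a9: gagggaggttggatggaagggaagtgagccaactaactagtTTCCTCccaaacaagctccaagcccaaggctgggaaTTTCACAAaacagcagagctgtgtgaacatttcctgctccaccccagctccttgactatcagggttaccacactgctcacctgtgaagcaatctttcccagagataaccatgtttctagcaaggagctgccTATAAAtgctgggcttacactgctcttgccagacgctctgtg
Camp: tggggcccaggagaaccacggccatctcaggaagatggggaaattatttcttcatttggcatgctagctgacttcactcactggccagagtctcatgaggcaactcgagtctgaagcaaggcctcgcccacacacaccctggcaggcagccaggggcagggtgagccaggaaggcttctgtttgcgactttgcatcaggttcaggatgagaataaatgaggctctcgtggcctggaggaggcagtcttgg
The S100a9 window held 1 match each to TATAAA, TTNNGNAA and GAGGAA, and the Camp window held none. Of 33469 promoter windows of the same length, 12.9% held TATAAA, 37.2% TTNNGNAA and 23.3% GAGGAA. The matches describe letters in these windows only.

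The 10 S100 genes lay on chromosome 2 in rn3, 9 of them within 203 kb (chr2:182734771-182937812) and S100a10 outside that stretch. The ranges over rats within the stretch were 1.97 for S100a8, 1.61 for S100a9, 1.28, 1.24 and 0.80 for the 3 S100a4 probes and 0.84 for S100a5, and the other tested probes there ranged over 0.40 to 0.49. S100a4, a motility-associated member, had lower means in females by -0.47 ± 0.20 and -0.52 ± 0.19 on the log2 scale for its 2 probes in the gene's main direction (limma, adjusted p = 0.27 and 0.22), and -0.26 ± 0.16 for the probe facing the other way. With slide as a block the probes A_43_P11489 and A_44_P332021 (facing the other way) differed by -0.88 and -0.51. The third probe differed by -0.59. That fit rests on 1 female array, nostril A of female 3.

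Genes that work with these were read from lists chosen by function. Of 27 tested probes for Toll-like receptor signaling (Myd88, Cd14, Ly96, Traf6 and others), 0 passed 1% between sexes, 0 between nostrils and 1 between rats, the ubiquitin ligase gene Traf6 (limma, adjusted p = 0.0032), where 2.79% of all probes did. Its rat means were 2.27 to 2.60 in rats 1 to 4 and 1.99 to 2.12 in rats 5 to 8. The median difference, female minus male, was 0.03 on the log2 scale, beside 0.01 for all probes. Of 13 tested probes for mucus partners such as Agr2, Tff3 and Pigr, and of 20 for other defense genes such as Lcn2, C3 and Duox2, none passed 1% in any of the 3 tests. Median sex differences of these lists were -0.05 and 0.00. For the 41 probes of the defense and mucin set the median difference was -0.05 between sexes and -0.01 between nostrils, beside 0.01 for all probes in both comparisons.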

How the data were processed

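Olfactory epithelium RNA labeled with Cy3 was hybridized to one-color Agilent whole rat genome arrays, 1 array per nostril. The deposited scanner files hold the processed intensity of each spot, as the authors extracted it with Agilent Feature Extraction 9.5, with background removed and no scaling between arrays. The deposited ratio table divides each signal by the median of its array and of its probe, and 98.2% of its values came within 2% of that calculation. It served as an alternative only. No depth applies to arrays, and the number of rats limits the precision.

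Probes were chosen by gene name, as Def, S100a, Plunc, Bpi, Lyz, Ltf, Lpo, Slpi, Muc, Camp, Reg3 and Tlr followed by their numbers or letters. These genes, the lists and the tests were chosen with earlier results of these data known. One marker of the neutrophil list is not reported here and was left out of that list. Named genes were those past 1% in a test, those with the largest ranges or differences, and the neutrophil, gland, mucin and receptor genes. Names follow the array annotation (build rn3), and all 47 were found in RefSeq.

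Signals were divided by the array median, raised to the floor of 0.1 and put on a log2 scale. Spots marked as outliers were left out and saturated spots kept. Probes well above background on at least 7 arrays were tested with limma 3.58.1 (lmFit, eBayes with trend, R 4.3.3) at a 1% false discovery rate (two-sided p, Benjamini-Hochberg over all probes). Sexes were compared over means of 8 rats. Nostrils were compared with rat as a block, because both come from 1 animal. Rats were compared by the F-statistic over contrasts within a sex. The study's methods used a t-test, which was run as an alternative. The fits were tested on simulated data. Correlations over rats used exact permutation of all pairings, and gaps between rats are given as a share of the range. Other scalings, corrections, filters, blocks and left-out rats were tried.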

Additional observations from a re-analysis of the deposited data

Results flagged for a closer look

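Within each sex, 1 rat stood far from the other 3 in 6 of the 82 groups examined (41 probes in males and in females), where chance gives about 1 in 20, and the count is not read as a result about the set. Female 4 accounted for 3 of them, on genes that were high and low in the same rats. Its rat mean was 3.10 for S100a8, against 1.13 to 1.22 in the other females, 3.49 for S100a9, against 1.90 to 2.01, and 2.32 for Camp, against 0.42 to 0.73. Both nostrils of female 4 were high for these genes, at 3.02 and 3.18 for S100a8. The neutrophil list averaged -0.49 in female 4 and -1.20 to -0.89 in the other females, and the red cell list 4.64 against 2.79 to 3.17. The part of these cells in the levels of female 4 was not tested.

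Male 1, measured by nostril A alone, stood low for S100a1 (probe A_43_P15752), at 6.32 against 6.55 to 6.57 in the other males, and for Muc19, at -0.83 against -0.57 to -0.53. Male 6 stood high for Slpi (probe A_44_P372254), at 2.64 against 2.16 to 2.22. No probe of the set had nostril differences of 1 sign in every male and the other sign in every female.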

How the results depend on the processing

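No probe of the set passed 1% between nostrils under any alternative run, including the fit with no replicate block for rat (0) and those without 1 rat (0 to 0), nor for the difference of the nostrils between sexes. The lowest adjusted p of the set between nostrils nevertheless fell from 0.78 to 0.013 with normexp. Between sexes 0 passed, also without 1 rat (0 to 0), in all fits but the following. Tlr2 passed with the 15 arrays taken as independent, which ignores that nostrils share a rat. With slide as a fixed block the sexes meet on slide 1 alone, with 1 female array, and the Tlr5 difference was 1.72 (log2). The share of all probes passing is not given for these fits, so they are not read as results about the set. In that slide fit the Tlr9 difference turned from 0.45 to -0.39. Between rats the count of 1 became 4 (S100a10, Tlr2, S100a16, Plunc) over all 8 rats, a fit that also sets males against females. The share of all probes is not given for that fit, so its count is not read as a result about the set. The count was 0 with the deposited ratio table, no filter, no variance trend, normexp, slide as a fixed block or slide as a random block. Without 1 rat it was 0 to 2. The cause was not tested.

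The count of 40 expressed probes did not change without 1 rat (40 to 40). Of 238 values of 21 named differences under other settings, 1 reversed and 231 kept both direction and side of the threshold. Counts at an unadjusted p and of rats not overlapping were repeated under settings chosen after seeing the data. Slide separates the sides of female 3 alone, so as a block between nostrils it would amount to leaving out that rat. Without female 3, 0 probes of the set passed 1% between nostrils. Genes near the floor, such as Tlr9 and Tlr5, are limited by signal over background.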
